A study of Mus musculus with 10 samples.

Results

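The genes described here carry a symbol made of Zfp and a number, a mouse convention for zinc finger proteins. Of 12394 genes with a probe set of their own on the array, 156 had such a symbol, with Zfp36 left out because it belongs to a different class of zinc finger. They were measured by 231 of the 22690 probe sets, and each gene is represented below by its brightest probe set over the 10 arrays. Membership rests on the symbol alone, since no protein sequence was used to count fingers.

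RNA came from 32Dcl3, a mouse myeloblast line that depends on interleukin 3 (IL-3) for growth. Cells were washed free of IL-3, transcription was stopped with actinomycin D at 10 µg/ml, and IL-3 was given back at a high dose of 1 ng/ml or a low dose of 0.01 ng/ml. These are called the high and the low dose. The 5 groups were 0 h, the high dose for 2 h, the low dose for 2 h, the high dose for 4 h and the low dose for 4 h, with 1 array per group in each of 2 independent experiments. The low dose stood for deprivation, the labels give the 0 h cells no dose, and all cells were of 1 line. The labels differ on whether the 0 h cells had already met actinomycin D, and the methods count time from the addition of cytokine.

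Most proteins of the C2H2 class hold short loops folded around zinc by cysteine and histidine, and rows of such loops read DNA. Many of the mouse Zfp genes sit in clusters and encode KRAB zinc finger proteins, which recruit the corepressor Trim28 (KAP1) and the histone methyltransferase Setdb1 to silence retroelements and imprinted genes. Others bind RNA, help build the mitotic spindle or act as ubiquitin ligases. Once transcription is blocked, the loss of array signal follows the decay of the mRNA, and an effect of IL-3 on decay would appear as a difference between the 2 doses at the same hour.

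Signal was an array intensity with no unit. The arrays had medians of 48.8 to 70.6 and 11280 to 12155 probe sets at 50 or above, with the 0 h array the brightest of each experiment. A gene entered the tests when its probe set averaged at least 50, which 74 of the 156 Zfp genes did. The other 82 had means of 1.47 to 48.8, among them Zfp42 (4.63), a marker of embryonic stem cells, Zfp57 (28.8), a guardian of imprints, and Zfp521 (8.37), known from blood progenitors. Of these 82, 18 averaged at least 50 at 0 h but not over all arrays. Of the 11 myeloblast markers, 9 passed the filter, with Elane and Kit near background at means of 19.6 and 7.98. The 4 lymphoid markers measured summed to 25.8 to 56.8 and were all under the filter. Of 5 macrophage markers 2 passed the filter, Adgre1 (2581 to 3310) and Csf1r (43.8 to 93.6), while Cd14, Marco and Mrc1 had means of 7.40 to 28.8. Of 4 erythroid and megakaryocyte markers 2 passed, Pf4 (426 to 1235) and Itga2b (1661 to 2014), with Klf1 and Hba-a1 at means of 9.42 and 2.67. Of 5 mast cell and basophil markers 3 passed, Cpa3 (882 to 1752), Mcpt8 (54.5 to 507) and Fcer1a (25.4 to 310), with Ms4a2 and Hdc at 16.9 and 17.4. The summed levels ranged from 2684 to 3439, 2191 to 3214 and 1071 to 2651 over the arrays. By 4 h Mcpt8 had risen by 0.98 in the high and 1.38 in the low dose on the log2 scale. Fcer1a had risen by 0.88 and 0.57 and Pf4 by 0.45 and 0.48. Changes of Cpa3 (0.10 and 0.17), Itga2b (−0.01 and −0.004), Adgre1 (−0.08 and −0.04) and Csf1r (0.26 and 0.18) did not pass. Of the 9 myeloblast markers tested, 2 had risen and 4 had fallen in the high dose. In the low dose 3 had risen and 4 had fallen. What these marker changes mean for the culture, and their part in the results, was not tested.

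Zfp transcripts were lost quickly in both doses. At 4 h in the high dose, 56 of the 74 genes tested had fallen (75.7%, against 40.6% of all 6792 genes tested, adjusted p under 0.05 in limma) and 2 had risen (against 9.11%). At 4 h in the low dose, 53 had fallen (71.6%, against 43.6%) and 2 had risen (against 13.7%). The median change of the Zfp genes on the log2(intensity + 16) scale was −1.03 in the high and −1.02 in the low dose, while the median over all genes tested was −0.16 in the high and −0.21 in the low dose. Both comparisons use the same 0 h arrays. In all, 52 genes fell in both doses, 2 rose in both and 15 passed in neither. Zfp142, Zfp445, Zfp932 and Zfp942 passed in the high dose only and Zfp428 in the low dose only, all of them falls, and these 5 were singled out after their values were seen. Fewer cells and less of a transcript per cell cannot be told apart in such bulk RNA. Each group has 2 arrays, 1 from each of 2 divided cultures, and the fit removes the mean difference between these cultures. The p-values rest on how far changes in 1 culture depart from those in the other. That spread is pooled over the 5 groups and moderated over probe sets, and only these 2 cultures enter it.

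The direction of a small change depended on how arrays were scaled. Setting each array to a common 75th percentile moved the median of all genes upward by 0.41 in the high and 0.42 in the low dose, after which 46 Zfp genes were lower and 11 higher in the high dose, and 45 lower and 11 higher in the low dose. This is called rescaling below. Over all genes tested, the split between lower and higher was then 1754 to 3164 in the high dose, in place of 2758 to 619, and 1927 to 3064 in the low dose, in place of 2961 to 933. Relative to the median of all genes, the Zfp median was lower by about the same amount under either scale (−0.86 as deposited and −0.88 after scaling in the high dose, −0.81 and −0.84 in the low dose). The authors held that normalizing to a constant total of mRNA does not apply after a transcription block. They took later values above 0 h as measurement noise. Rises after rescaling are thus relative to the 75th percentile of each array and need not be gains of mRNA.

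**Figure D1:**
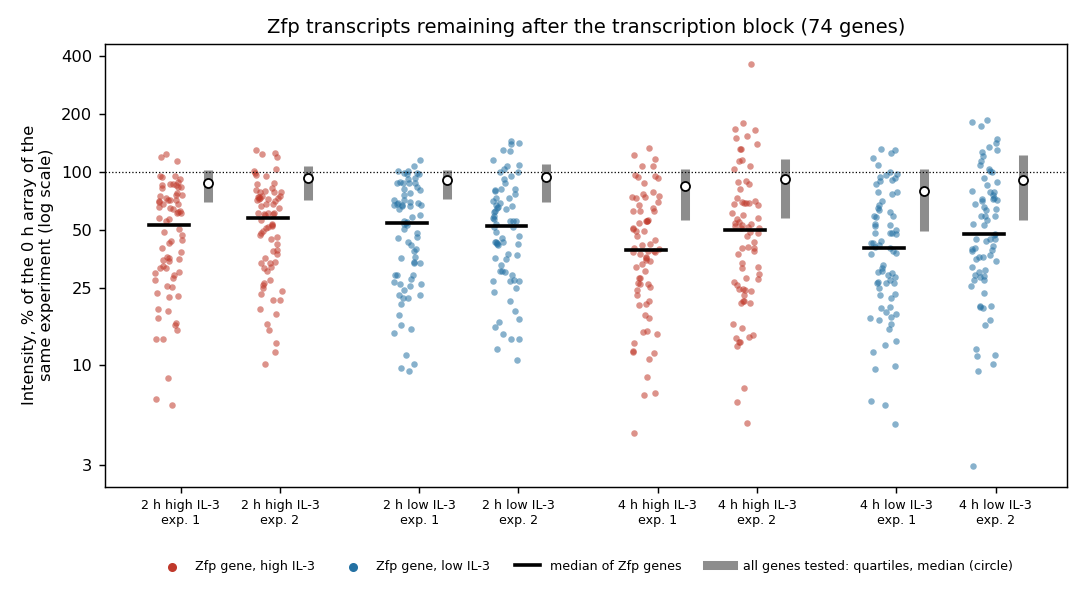
Signal of the 74 Zfp genes tested, as a percent of that experiment's 0 h signal (log scale), at 2 h and 4 h in the high dose (red) and low dose (blue). Black bars are medians of the Zfp genes, and grey bars with circles are the quartiles and median of all 6792 genes tested. In each of the 8 columns the Zfp median (39.4% to 58.1%) lies below the median of all genes (79.7% to 94.9%).

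Both experiments showed the gap. At 4 h in the high dose the median Zfp gene kept 39.4% of its 0 h signal in experiment 1 and 50.1% in experiment 2, against 84.6% and 91.7% for all genes tested. At 4 h in the low dose it kept 40.6% and 47.5%, against 79.7% and 91.5%. Zfp probe sets were dimmer than most, with a median mean intensity of 121 against 396, so the counts were also read in bands of signal. Among genes of mean intensity 50 to 100, 23 of 29 Zfp genes had fallen at 4 h in the high dose (79.3%, against 37.9% of all genes in that band), between 100 and 200 it was 17 of 22 (77.3%, against 46.4%), and at 200 or above 16 of 23 (69.6%, against 39.8%). In the low dose the shares were 79.3%, 63.6% and 69.6% of the Zfp genes, against 40.2%, 49.0% and 43.0% of all genes. Of the 74 genes, 15 averaged under 50 over the 8 later arrays and passed only through 0 h. Without them, a count added after the data were seen, 41 of 59 Zfp genes had fallen in the high dose (69.5%, against 39.5% of all genes left by the same rule) and 39 in the low dose (66.1%, against 42.5%). Genes that passed only through 0 h include Zfp142 above and, below, Zfp51, Zfp53, Zfp282, Zfp472, Zfp568, Zfp574, Zfp654, Zfp868 and Zfp958.

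Most of the loss came in the first 2 h. At 2 h in the high dose, 51 Zfp genes had already fallen (68.9%, against 27.6% of all genes tested), and at 2 h in the low dose 48 had (64.9%, against 27.5%). No Zfp gene passed as higher at 2 h in limma (against 3.05% of all genes in the high and 1.47% in the low dose). At an unadjusted p under 0.05, 1 Zfp gene was higher in each dose. Of all 6792 genes tested, 438 were so in the high and 346 in the low dose. The median log2 change of the Zfp genes over the first 2 h was −0.75 in the high and −0.84 in the low dose, and over the next 2 h it was −0.15 and −0.05. Of the 56 genes that had fallen by 4 h in the high dose, 47 lost more in the first interval than in the second (83.9%, against 58.7% of all genes that fell), and of the 53 in the low dose, 46 did (86.8%, against 56.5%). Without the 15 genes that passed the filter through 0 h alone, also counted after the data were seen, 39 of 59 Zfp genes had fallen at 2 h in the high dose (66.1%, against 26.4% of all genes left by the same rule) and 36 in the low dose (61.0%, against 26.2%). Of the falls at 4 h among these 59, 33 of 41 were larger in the first interval in the high dose (80.5%, against 57.2%) and 34 of 39 in the low dose (87.2%, against 54.8%). Part of these curves ends near background. At 4 h the signal of 17 fallen genes in the high dose and 16 in the low dose averaged under 50, where the lower quartile of all probe sets was 8.04 to 10.1, and no background was subtracted, so half-lives of such genes may be overstated.

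Half-lives were computed for each experiment as ln 2 over minus the slope of ln(signal relative to 0 h) on time. The median Zfp half-life was 3.04 h in the high and 3.09 h in the low dose, against 36.1 h and 32.1 h over all genes tested. Of all 6792 genes tested, 2987 in the high and 3062 in the low dose showed no decay in at least 1 experiment. Medians over all genes lie far beyond the 4 h course and rest on slopes near 0, so they are not measured half-lives. Within experiments the Zfp median was 2.73 h and 3.46 h in the high dose and 2.71 h and 3.39 h in the low dose. A half-life under 4 h in both experiments was found for 38 of the 74 genes in the high dose (51.4%, against 18.3% of all genes tested) and 40 in the low dose (54.1%, against 20.6%), and under 2 h for 21 in each dose (28.4%, against 7.21% in the high and 7.92% in the low dose). After rescaling the median Zfp half-life was 4.66 h in the high and 4.81 h in the low dose. The median log2 change of all genes at 4 h was then above 0 (0.25 and 0.21), so no value over all genes is set beside it. Without the 15 genes that passed the filter through 0 h alone, the median Zfp half-life as deposited was 4.05 h and 4.40 h, against 43.4 h and 42.0 h over all genes left by the same rule. By the mean of the 2 experiments, 24 genes lay under 2 h, 19 between 2 h and 4 h, 16 between 4 h and 12 h and 2 above 12 h in the high dose, while 13 showed no decay in at least 1 experiment. The counts in the low dose were 23, 18, 17 and 4, with 12 that showed no decay.

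The 8 largest falls belonged to the same genes in both doses: Zfp622, Zfp958, Zfp472, Zfp871, Zfp282, Zfp281, Zfp574 and Zfp53. Of these, Zfp958, Zfp472, Zfp282, Zfp574 and Zfp53 passed the filter through 0 h alone. For them the filter itself favoured large falls and short half-lives. Zfp622, whose yeast counterpart Rei1 works in maturation of the large ribosomal subunit, had the brightest Zfp probe set at 0 h by the mean of both experiments, at 2309 in experiment 1 and 1758 in experiment 2. It read 801 and 284 at 2 h in the high dose, 783 and 305 at 2 h in the low dose, 247 and 112 at 4 h in the high dose, and 293 and 177 at 4 h in the low dose. No later array reached the level of 0 h in either experiment. The log2 change at 4 h was −3.47 ± 0.20 (SE) in the high dose (adjusted p = 2.0e-09) and −3.06 ± 0.20 in the low dose (adjusted p = 4.9e-09). Its half-life was 1.25 h and 0.946 h in the high dose and 1.33 h and 1.09 h in the low dose. The probes of this set can match other transcripts, and a second Zfp622 probe set without that mark changed by −2.17 and −1.88.

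Zfp281, a regulator of pluripotency that binds GC-rich DNA, read 523 and 310 at 0 h. It was down to 70.6 and 31.4 at 2 h in the high dose and to 79.9 and 41.9 at 2 h in the low dose. At 4 h it had 76.9 and 38.6 in the high dose and 91.7 and 52.9 in the low dose, so that its signal was no lower at 4 h than at 2 h in either experiment. The log2 change at 4 h was −2.56 ± 0.17 in the high and −2.28 ± 0.17 in the low dose (adjusted p = 5.4e-09 and 1.5e-08). A second Zfp281 probe set changed by −1.39 and −1.32. From 2 h to 4 h it dropped in experiment 2 in the high dose (44.2 to 36.6) and in experiment 1 in the low dose (84.1 to 75.2). It rose in the other cases.

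Zfp472 had the shortest mean half-life in the low dose, with 0.766 h and 1.19 h in the high dose and 0.834 h and 1.07 h in the low dose. It read 14.5 to 33.4 on the 8 later arrays, against 330 and 130 at 0 h. Zfp958 read 6.18 to 28.6 on the later arrays, against 307 and 124 at 0 h, with half-lives of 0.889 h and 0.862 h in the high dose and 0.873 h and 1.08 h in the low dose. For both genes the first reading after 0 h was already under 50. Zfp574 did the same, with 21.5 to 42.7 on the later arrays, against 370 and 204 at 0 h, while its second probe set fell by only 0.80 and 0.83 on the log2 scale.

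Zfp282, whose human counterpart represses a retroviral promoter, behaved otherwise and went on falling. It read 142 and 164 at 0 h, 36.2 and 41.1 at 2 h in the high dose, 41.3 and 41.0 at 2 h in the low dose, 12.3 and 12.5 at 4 h in the high dose and 13.5 and 4.86 at 4 h in the low dose. The experiments lay close together in every group but 4 h in the low dose. Zfp871 read 1108 and 521 at 0 h, 178 and 113 at 2 h in the high dose, 254 and 98.3 at 2 h in the low dose, 130 and 74.4 at 4 h in the high dose and 197 and 103 at 4 h in the low dose. Zfp53 read 40.8 and 17.9 at 4 h in the high dose and 35.2 and 12.6 in the low dose, against 356 and 136 at 0 h.

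**Figure D2:**
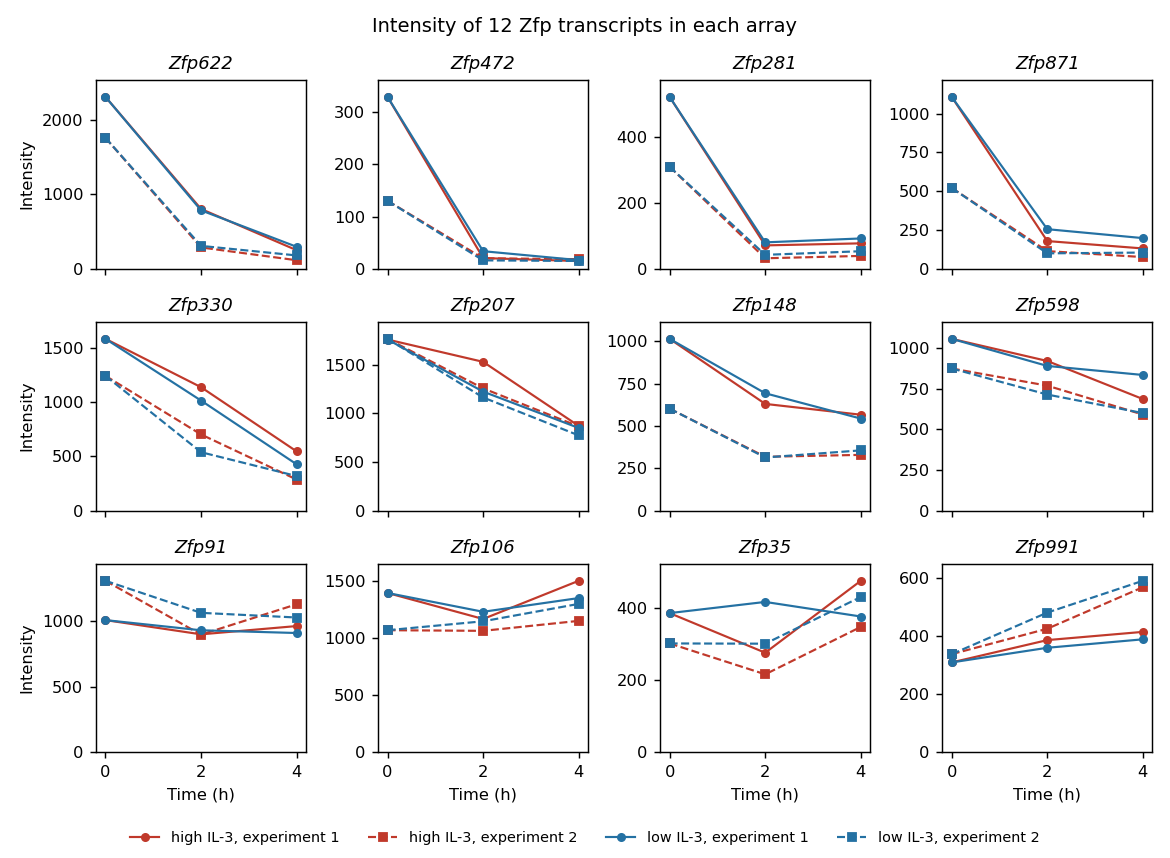
Intensity of 12 Zfp transcripts on each array over 0, 2 and 4 h, in the high dose (red) and low dose (blue), with experiment 1 as solid lines and experiment 2 as dashed lines. Zfp622, Zfp472, Zfp281 and Zfp871 drop within 2 h, Zfp330 and Zfp207 go on falling through 4 h, and Zfp91, Zfp106 and Zfp35 keep most of their signal as deposited and rise after rescaling, Zfp91 in the high dose only.

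Several members work outside transcription, and they did not share 1 pace. Zfp207 (BuGZ), which helps assemble the mitotic spindle, read 1757 and 1765 at 0 h. It fell to 1528 and 1256 at 2 h and 869 and 864 at 4 h in the high dose, and to 1222 and 1162 at 2 h and 849 and 772 at 4 h in the low dose. The log2 change at 4 h was −1.01 ± 0.10 in the high and −1.11 ± 0.10 in the low dose (adjusted p = 6.1e-07 and 1.9e-07), with mean half-lives of 4.20 h and 3.58 h. Of its other tested probe sets, 1 changed at 4 h by −1.21 in the high and −0.96 in the low dose, both of which passed, and 1 by −0.82 in the high dose, which passed, and −0.27 in the low dose (adjusted p = 0.31). Zfp330, a nucleolar protein, read 1588 and 1246 at 0 h, 1141 and 704 at 2 h in the high dose, 1017 and 539.6 at 2 h in the low dose, 547 and 287 at 4 h in the high dose and 428 and 319 at 4 h in the low dose. Its log2 changes at 4 h were −1.78 ± 0.15 and −1.88 ± 0.15 (adjusted p = 5.3e-08 and 2.6e-08). By the mean of the experiments it lost more on the log2 scale after 2 h than before in both doses.

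Zfp830, a factor in pre-mRNA splicing needed in mouse embryos, was among the fast ones, with half-lives of 1.37 h and 1.22 h in the high dose and 1.27 h and 1.36 h in the low dose. Zfp451, a SUMO ligase, followed at 1.83 h and 2.04 h in the high dose and 1.74 h and 2.12 h in the low dose. Zfp346, which binds double-stranded RNA, kept 62.8% ± 8.8 of its signal at 4 h in the high dose and 62.8% ± 13 in the low dose (SD, n = 2). Zfp598, the ubiquitin ligase that senses collided ribosomes, kept 66.2% ± 1.9 and 73.8% ± 7.3. By the probe set used, all of these falls passed the test in both doses, though after rescaling Zfp346 (−0.23 in each dose) and Zfp598 (−0.16 in the high and 0.003 in the low dose) no longer did. A second Zfp346 probe set changed by −0.22 in the high and −0.10 in the low dose and passed in neither (adjusted p = 0.34 and 0.65). Zfp830, Zfp451 and Zfp598 were picked for their known roles after the values were seen.

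Another 3 of this kind passed in neither dose by the probe set used. Zfp91, a ubiquitin ligase of the noncanonical NF-κB pathway, read 962 and 1128 at 4 h in the high dose and 909 and 1027 in the low dose, against 1008 and 1307 at 0 h. Its log2 changes of −0.14 and −0.24 (adjusted p = 0.33 and 0.072) turned to 0.29 and 0.19 after rescaling, and the change in the high dose then passed as a rise (adjusted p = 0.037). A second Zfp91 probe set changed by −0.10 in the high dose (adjusted p = 0.54) and fell by 0.33 in the low dose as deposited (adjusted p = 0.033). Zfp326, part of a complex that couples elongation to splicing, changed by −0.03 and 0.11, and after rescaling by 0.38 and 0.53, which passed. Zfp106, an RNA-binding protein needed for neuromuscular function in mice, read 1506 and 1155 at 4 h in the high dose and 1355 and 1304 in the low dose, against 1399 and 1073 at 0 h. Its log2 changes were 0.10 and 0.12 (adjusted p = 0.45 and 0.38), and 0.53 and 0.55 after rescaling, which passed. Of its 4 tested probe sets none passed as lower, while 2 passed as higher in the high dose and 3 in the low dose.

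Among DNA-binding regulators, Zfp148 (ZBP-89) read 567 and 329 at 4 h in the high dose and 544 and 356 in the low dose, against 1016 and 603 at 0 h, and fell by 0.83 and 0.81 on the log2 scale. Of its 4 tested probe sets, all passed as lower in the high dose but 3 in the low dose. The remaining one changed by −0.40 in the high and −0.29 in the low dose (adjusted p = 0.039 and 0.12). Zfp318, which lets B cells express IgD, fell by 0.82 in either dose, and Zfp110, a partner of the p75 neurotrophin receptor, by 1.41 and 1.37. Zfp292 read 81.3 and 32.6 at 4 h in the high dose and 92.8 and 63.7 in the low dose, against 468 and 211 at 0 h. Its 4 tested probe sets all passed as lower in both doses, by 1.04 to 2.27 in the high and 1.00 to 1.83 in the low dose. Zfp64, whose human counterpart drives MLL in leukaemia, fell by 1.92 and 1.97. All of these were below 0 h at 4 h in each experiment. Zfp35 changed by 0.24 and 0.23 and passed in neither dose as deposited, but passed as higher in both after rescaling (0.65 in each).

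Of members known as KRAB repressors, also picked after their values were seen, Zfp568, which silences a placental Igf2 promoter, fell by 1.47 in the high and 1.44 in the low dose, with a half-life near 2 h in each experiment (1.87 h and 2.05 h in the high dose, 1.86 h and 1.95 h in the low dose). Zfp445, a keeper of imprints, fell by 0.69 in the high dose (adjusted p = 0.0049) and changed by −0.41 in the low dose (adjusted p = 0.068), with a difference between doses of −0.24 (95% interval −0.51 to 0.03) and neither change passing after rescaling. A second Zfp445 probe set, whose probes may match other transcripts, passed as lower in both doses (−0.54 and −0.48, adjusted p = 0.027 and 0.040). Zfp746 (PARIS), a substrate of Parkin, changed by −0.12 in each dose, or 0.27 and 0.29 after rescaling, and passed in neither.

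By the probe set used, only Zfp991 and Zfp931 passed as higher at 4 h. Zfp991 read 310 and 338 at 0 h, 386 and 425 at 2 h in the high dose, 360 and 481 at 2 h in the low dose, 415 and 568 at 4 h in the high dose and 389 and 590.3 at 4 h in the low dose. On this probe set every later array was above the 0 h array of its experiment. The log2 changes at 4 h were 0.56 ± 0.14 and 0.55 ± 0.14 (adjusted p = 0.0046 and 0.0048). A second Zfp991 probe set changed by 0.17 and 0.07 and passed in neither dose (adjusted p = 0.57 and 0.80). In experiment 2 it read 34.1 at 2 h in the high dose, against 76.8 at 0 h. Zfp931, measured by a probe set whose probes may match other transcripts, changed by 0.45 ± 0.16 and 0.62 ± 0.16 (adjusted p = 0.028 and 0.0032). Both rises were larger in experiment 2, and neither passed without the experiment 2 array of 0 h, or of 4 h in the dose concerned (adjusted p of 0.052 to 0.30).

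**Figure D3:**
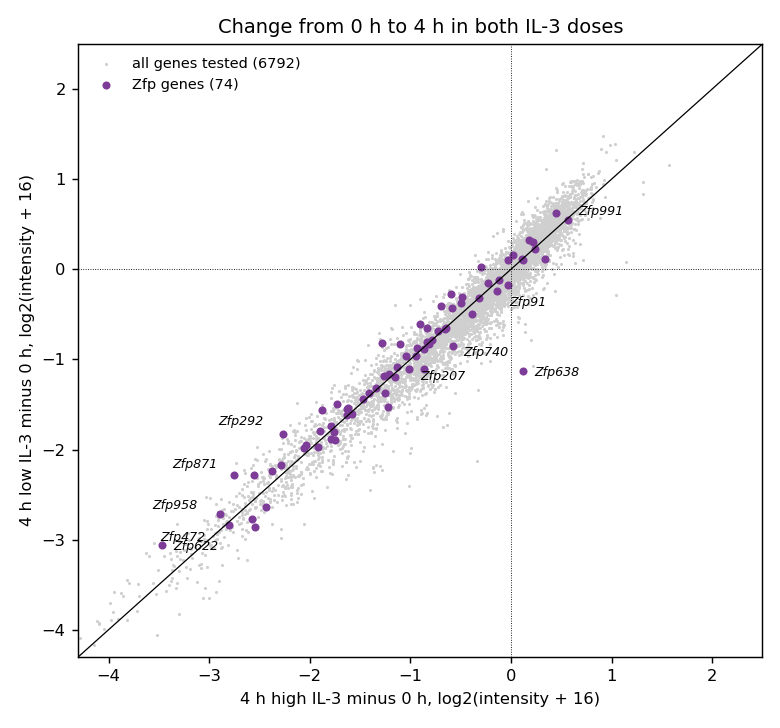
Change from 0 h to 4 h on the log2(intensity + 16) scale in the high dose (horizontal) and low dose (vertical) for the 74 Zfp genes tested (purple) and all 6792 genes tested (grey), with the line of equal change. The Zfp genes spread from −3.47 to 0.56 in the high dose and −3.06 to 0.62 in the low dose and stay near the line, except Zfp638.

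Neighbouring Zfp genes were read together, since clusters of this family hold close copies whose probes may share targets. In the RefSeq gene table, Zfp51, Zfp52 and Zfp53 lie beside each other and fell by 2.37, 2.04 and 2.44 on the log2 scale at 4 h in the high dose and by 2.23, 1.95 and 2.63 in the low dose. Zfp868 and Zfp869 fell by 1.75 and 1.63 in the high dose and by 1.89 and 1.61 in the low dose. Other neighbours parted. Zfp282, Zfp212 and Zfp777 fell by 2.77, 1.32 and 1.37 in the low dose, but Zfp746, of the same run, changed by −0.12. Zfp644 fell by 1.74 in the low dose, while its neighbour Zfp326 changed by 0.11. The probe sets used for Zfp397, Zfp35 and Zfp24, a run of 3, passed in neither dose. These runs were picked after their values were seen.

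For Zfp24 that reading depends on the probe set. The one used, the brighter by its mean, read 191 and 269 at 4 h in the high dose and 244 and 259 in the low dose, against 258 and 192 at 0 h. The other read 614 and 291 at 0 h, 171 and 76.7 at 2 h in the high dose, 150 and 56.0 at 2 h in the low dose, 69.1 and 25.2 at 4 h in the high dose and 71.3 and 37.6 at 4 h in the low dose. Its log2 change was −2.89 ± 0.17 in the high and −2.68 ± 0.17 in the low dose (adjusted p = 2.6e-09 and 4.1e-09), while the first changed by 0.02 ± 0.18 and 0.16 ± 0.18, or by 0.43 and 0.58 after rescaling, which passed as rises. Of the 23 Zfp genes with more than 1 tested probe set, all probe sets were lower at 4 h in 13 genes in the high and 10 in the low dose, and some but not all in 5 and 9. As deposited, no gene had probe sets that passed in opposite directions.

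**Figure D4:**
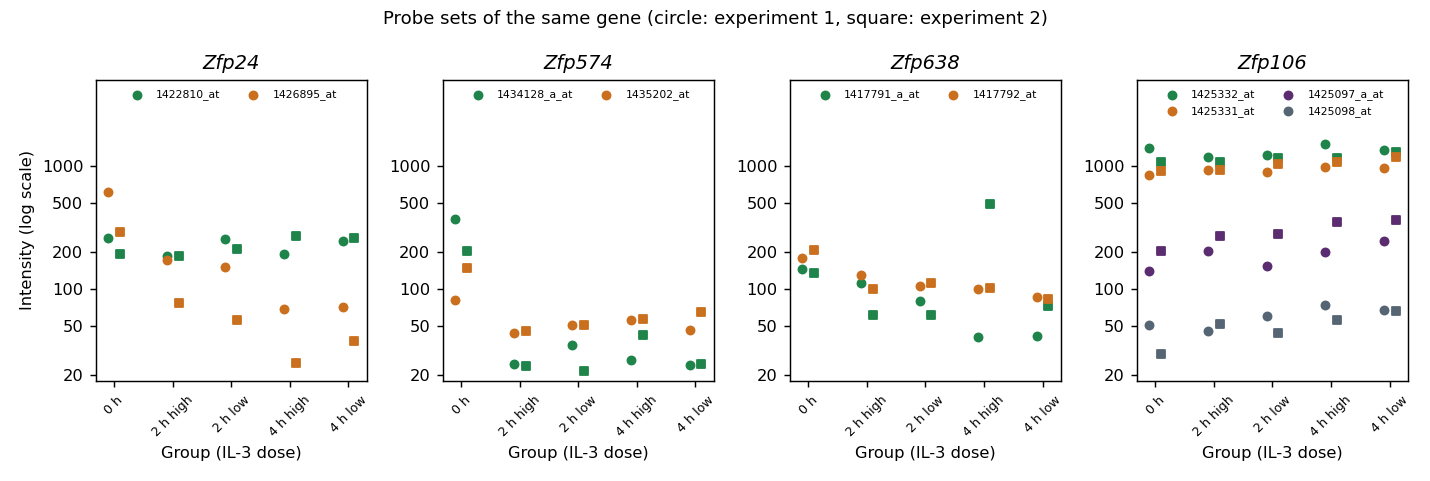
Intensity (log scale) of each tested probe set of Zfp24, Zfp574, Zfp638 and Zfp106 in the 5 groups, with circles for experiment 1 and squares for experiment 2. One Zfp24 probe set stays level as deposited (and passed as higher after rescaling) while the other falls, and a single Zfp638 value, 488 at 4 h in the high dose in experiment 2, stands above its other 9 arrays.

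The dose of IL-3 made no difference that passed for any Zfp gene. Over both times 0 of 74 were higher in the high dose (against 0.869% of all genes tested) and 0 were lower (against 0.0147%), and at an unadjusted p under 0.05 limma gave 2 higher and 3 lower. At 2 h it was 0 higher and 0 lower (against 0.0736% and 0%, with 1 and 1 unadjusted), at 4 h 0 and 0 (against 0.486% and 0.0147%, with 1 and 3 unadjusted), and for the change of the dose difference between the times 0 and 0 (against 0% and 0%, with 1 and 0 unadjusted). At the backgrounds of the adjusted calls, a list of this length would hold less than 1 called gene. By the unadjusted p, 459 of all 6792 genes tested were higher over both times and 125 lower. At 2 h these counts were 267 and 184, at 4 h 431 and 118, and for the change between the times 230 and 134. The median difference of the Zfp genes, high minus low dose, was −0.02 (range −0.35 to 0.73), with 30 genes above and 44 below 0. It lay within 0.25 either way for 70 of the 74. The 95% interval of the fit had a median half-width of 0.28, and for 65 genes the whole interval stayed inside 0.5 either way, so that differences smaller than this could have been missed.

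**Figure D5:**
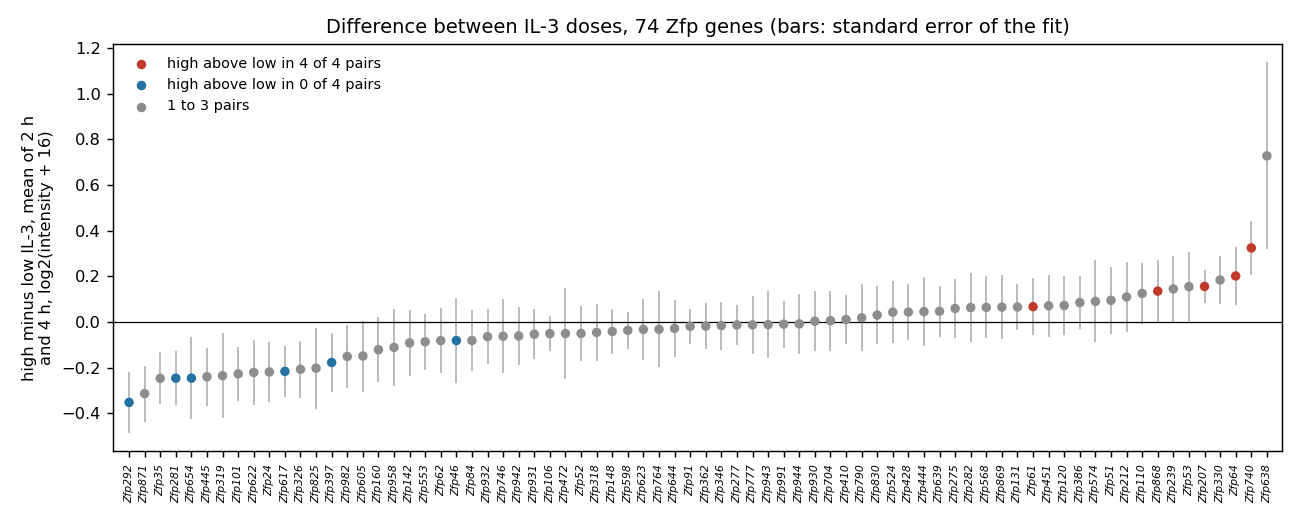
Difference between the high and the low dose (mean of 2 h and 4 h, log2(intensity + 16)) for the 74 Zfp genes in order of size, with bars for the standard error of the fit. Red points were higher in the high dose in all 4 pairs of arrays and blue points in none, and 70 of the 74 points lie within 0.25 of 0.

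The high dose was above the low dose in all 4 pairs of arrays for 5 Zfp genes (6.76%, against 11.1% of all genes tested) and in no pair for 6 (8.11%, against 7.44%). The 5 were Zfp740, Zfp64, Zfp207, Zfp868 and Zfp61. Zfp740 read 273 and 228 in the high dose at 2 h, against 182 and 195 in the low dose, and 189 and 166 at 4 h, against 142 and 146. Its difference was 0.32 ± 0.12 (95% interval 0.08 to 0.57), the smallest adjusted p among Zfp genes at 0.36. Its half-life came out at 20.1 h and 4.49 h in the high dose, against 5.25 h and 3.54 h in the low dose. The 20.1 h lies far beyond the 4 h course and rests on a slope near 0, so it is not a measured half-life. In that experiment the 2 h array of the high dose was above 0 h (273 against 240). Zfp207 had 0.16 ± 0.07 (adjusted p = 0.58), while its other tested probe sets had −0.45 ± 0.19 and −0.29 ± 0.15 (adjusted p = 0.49 and 0.67). Zfp64 had 0.20 ± 0.13, Zfp868 0.14 ± 0.14 and Zfp61 0.07 ± 0.13.

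On the other side stood Zfp292, Zfp281, Zfp654, Zfp617 and Zfp397, with Zfp46 the sixth. Zfp292 read 81.5 and 45.6 in the high dose at 2 h, against 103 and 57.0 in the low dose, and its difference was −0.35 ± 0.13 (95% interval −0.64 to −0.07, adjusted p = 0.41). Zfp281 had −0.25 ± 0.12 (adjusted p = 0.60), Zfp654 −0.25 ± 0.18, Zfp617 −0.22 ± 0.11 and Zfp397 −0.18 ± 0.13. A second Zfp281 probe set had 0.07 ± 0.15 (adjusted p = 0.95), and the other tested Zfp292 probe sets had −0.14, −0.09 and −0.08. By the probe set used, Zfp281 kept 14.7% and 12.4% of its 0 h signal at 4 h in the high dose, against 17.5% and 17.1% in the low dose. Half-lives were longer in the high dose in both experiments for 16 of 74 Zfp genes and longer in the low dose for 19, where over all 6792 genes tested the counts were 1622 and 820. A gene with no decay in both doses of an experiment could count on neither side. No decay in both experiments was seen for 1706 of all genes in the high and 1780 in the low dose, against 2 and 5 Zfp genes. The 2 sets of counts are thus not on a like footing.

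The difference farthest from 0 belonged to Zfp638, known in human cells for silencing unintegrated retroviral DNA, and it came from 1 array. This gene was singled out after its values were seen. Its probe set read 41.1 and 488 at 4 h in the high dose, against 41.8 and 72.3 in the low dose, after 146 and 134 at 0 h. The difference at 4 h was 1.25 ± 0.58 (adjusted p = 0.67). Left without the experiment 1 array of 4 h in the high dose, the fit gave 2.88 ± 0.30 (adjusted p = 9.5e-05), and Zfp638 was then the 1 Zfp gene called between doses. Left without the experiment 2 array it gave −0.39 (adjusted p = 0.96), and the fall at 4 h in the high dose was then −1.51 (adjusted p = 0.00077). A second Zfp638 probe set read 100.3 and 101 at 4 h in the high dose, against 86.1 and 83.2 in the low dose, and fell in both doses by 0.84 and 1.05.

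The experiments differed at the start. At 0 h, 62 of the 74 Zfp genes were brighter in experiment 1, with a median ratio to experiment 2 of 1.58 (1.23 over all genes tested). The ratio was 1.69 among the 52 genes that fell in both doses and 1.30 among the 15 that passed in neither. At 4 h it was 1.31 in the high and 1.23 in the low dose. The part of this difference in the results was not tested. The fit held experiment as a block, which removes only a difference that is constant over the groups. The change of the ratio from 0 h to 4 h is not removed.

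Related families were read beside the Zfp genes. Of 13 tested Zbtb genes, which join fingers of this class to a BTB domain, 12 had fallen at 4 h in the high and 13 in the low dose (medians −1.47 and −1.52), against 40.6% and 43.6% of all genes tested. Among them Zbtb22 averaged 76.8 at 4 h in the high dose and 75.5 in the low dose, against 696 at 0 h. Of 7 Zscan and Zkscan genes, 4 had fallen in each dose (57.1%). Of 5 Zc3h genes, whose CCCH fingers bind RNA, 1 had fallen and 1 risen in the high dose, and 3 had fallen in the low dose.

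Of 20 genes for the machinery that KRAB proteins recruit, 7 had fallen in the high and 8 in the low dose (35.0% and 40.0%, below the 40.6% and 43.6% of all genes tested), with medians of −0.13 and −0.10. Trim28 fell by 0.85 in the low dose, where it averaged 1252, against 2268 at 0 h, and Setdb1 by 1.26 (177 against 448). Atf7ip, the partner of Setdb1, fell by 2.96 (39.8 against 431). The heterochromatin protein genes Cbx1 and Cbx5 changed by −0.10 and −0.14 and did not pass. Of 16 other finger genes that regulate blood cells, 10 had fallen in the high and 11 in the low dose (62.5% and 68.8%), led by the repressors Gfi1 (−2.92) and Gfi1b (−2.35) in the low dose, and Hivep2 had risen in the low dose (0.47). No gene of these 5 lists passed between the doses.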

How the data were processed

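Total RNA of 32Dcl3 cells was hybridised to 10 Affymetrix mouse expression arrays. The authors deposited intensity values on a linear scale, normalized for all arrays together with dChip at default settings. The version of dChip was not given in the sources used here. No detection calls came with them. The platform annotation pairs 20393 probe sets with 1 gene and 691 with several, leaving 1606 unnamed, and all 156 Zfp gene IDs matched a RefSeq gene table (assembly GRCm38.p6) with unchanged symbols. That table was used for names and neighbours (within 3 protein-coding genes) only.

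The 11856 probe sets with a mean of at least 50 were tested on log2(intensity + 16) with limma 3.58.1 in R 4.3.3, in 1 fit of 5 groups that blocked on experiment and let eBayes follow a trend on signal, and p-values were adjusted over all of them (Benjamini-Hochberg, 0.05). Counts over all genes used 1 probe set per gene (6792 genes). The pseudocount understates changes of dim genes. Blocking reflects that 1 divided culture gave all 5 arrays of an experiment, and same-experiment arrays deviated together (correlations of 0.762 to 0.887). For each half-life a line held at the 0 h value was fitted to ln(ratio) over time, ln 2 was divided by minus its slope, and slopes of 0 or above counted as no decay. Precision is limited by having 2 arrays per group. The steps were tested on simulated data. Figures used Python 3.11.15 with matplotlib 3.10.9.

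Named genes were those among the 8 largest falls or 5 largest rises that passed, the 5 brightest at 0 h, the 5 largest dose differences of 1 sign in all 4 pairs in either direction, the 3 shortest and 3 longest half-lives in the low dose, any that passed a dose test, and known regulators. Zfp397 and Zfp319, which have the longest finite half-lives beside Zfp91, have slopes so near 0 that no value is given. Members and lists were chosen with earlier results of these data known. Sorting by finger number or KRAB domain was not done, as protein sequences were not used here. Alternatives were other pseudocounts, filters and scalings, no block, no trend, ambiguous probe sets left out, genes left out that passed through 0 h alone (added after the data were seen), and each array left out.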

Additional observations from a re-analysis of the deposited data

How the results depend on the processing

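With a pseudocount of 1, no trend or ambiguous probe sets left out, the counts of falls and the medians stayed near those reported. Half-lives rose after scaling to the 75th percentile (medians of 4.66 h in the high and 4.81 h in the low dose), quantile normalization (4.89 h and 4.74 h), a filter at 200 (4.85 h and 4.84 h) or leaving out the genes that passed through 0 h alone (4.05 h and 4.40 h), the last chosen after seeing the data. From the 2 h value alone the median in the low dose was 2.16 h. The median log2 change at 4 h in the high and the low dose became −0.63 and −0.63 after 75th percentile scaling, −0.71 and −0.66 after quantile normalization, −0.79 and −0.79 with the filter at 200, −0.65 and −0.65 with no filter, and −0.81 and −0.76 with a pseudocount of 64. The filter at 200 left 23 genes, of which 16 fell by 4 h in each dose and 15 in the high and 12 in the low dose by 2 h. The share at 4 h was 69.6% in each dose, against 39.7% of all genes in the high and 43.0% in the low dose. Without the block (no pairing of arrays within an experiment) 32 fell by 4 h in the high dose (43.2%, against 17.7% of all genes tested). In the low dose 34 then fell (45.9%, against 21.1%). Also without the block, 9 and 11 fell by 2 h, and 0 rose (against 0.353% and 1.24% of all genes at 4 h). Zfp genes higher at 4 h numbered 11 in each dose after 75th percentile scaling (against 46.6% of all genes in the high and 45.1% in the low dose). They numbered 9 after quantile normalization (against 37.0% and 37.1%). Without ambiguous probe sets 1 was higher (against 9.11% and 13.7%), as Zfp931 drops out. The cause of these shifts was not tested beyond the loss of genes or of the block by construction.

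Leaving out each array in turn gave 50 to 56 falls and 0 to 4 rises at 4 h in the high dose, 47 to 54 falls and 0 to 3 rises in the low dose, 40 to 52 falls at 2 h in the high and 37 to 50 in the low dose, and medians at 4 h of −1.14 to −0.91 and −1.13 to −0.94. It gave 0 to 1 dose calls over both times, at 4 h and for the change between times, the 1 being Zfp638, and 0 at 2 h. The rises went to 0 without the experiment 2 array of 0 h or of 4 h in the dose concerned. Where an array was left out, its lone partner was taken to vary like the other groups.

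After 75th percentile scaling the sign of the change at 4 h turned for 7 of the 74 Zfp genes in the high and 10 in the low dose, of which 1, Zfp598 in the low dose (−0.43), had passed as deposited. Quantile normalization turned 7 and 9, none of which had passed. Signs of genes named by the rule turned as follows. After 75th percentile scaling and quantile normalization, the change at 4 h in the high dose was 0.13 and 0.11 for Zfp319, 0.38 and 0.43 for Zfp326, 0.051 and 0.013 for Zfp397 and 0.29 and 0.17 for Zfp91. In the low dose it was 0.22 and 0.20 for Zfp319 and 0.19 and 0.086 for Zfp91. With 1 array left out, the change at 4 h in the high dose ranged between −0.0014 and 0.21 for Zfp106 and between −0.24 and 0.18 for Zfp326. In the low dose it ranged between −0.51 and 0.21 for Zfp319, −0.22 and 0.43 for Zfp326, −0.059 and 0.51 for Zfp35 and −0.035 and 0.091 for Zfp397, and the dose difference of Zfp61 between −0.0024 and 0.14. Dim genes are limited most, since their later values approach background.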
